A study of Mus musculus with 12 samples.

Results

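The cytosolic ribosomal protein genes encode the protein part of the ribosomes that translate messenger RNA in the cytoplasm. The rule for members uses names and no measured value, but it was set with earlier results of these data known. It takes every array probe whose transcript carries a mouse symbol of the form Rpl or Rps with a number, and Rpsa, Rplp0, Rplp1 and Rplp2. Kinases of the ribosome and mitochondrial ribosomal proteins were not included. This gave 118 probes for 82 genes, out of 41174 probes and 17178 named genes on the array. A further 7 matching symbols had no probe (Rpl10l, Rpl32l, Rpl6l, Rps12l1, Rps3a2, Rps3a3 and Rps4l).

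Expression was measured on 12 arrays, 3 in each of 4 groups of mouse cells labelled as epithelial: reprogrammed lung (replicates 1, 3 and 4), reprogrammed mammary (replicates 1, 2 and 3), adult lung (replicates 1, 2 and 3) and adult mammary (replicates 1, 2 and 4). By its title, the study is about reprogramming that depends on stroma. Adult donors were females of 10 weeks, whose lungs or mammary glands were digested with trypsin and collagenase, and washes with slow spins enriched the epithelium; a cell sort is not mentioned. No strain or transgene is given in the labels. In a reprogrammed sample, the organ named could be the source of the cells or the organ they formed, and the labels leave this unsaid. Replicates are not described as separate animals, and p-values then measure only the spread between these samples, which may be technical.

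As background, a ribosome has a small subunit, which reads the message, and a large subunit, which joins amino acids. Proteins of the small subunit have names starting with Rps and those of the large subunit with Rpl. Equal amounts of nearly all of them are built into each ribosome, and their messages are known for a start rich in C and T bases (the 5′ terminal oligopyrimidine, or TOP, tract), through which growth signals control their translation. A few members have a paralog, a second gene for a similar protein, such as Rpl3l, Rpl7l1, Rpl22l1, Rpl39l and Rps27l.

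The stretch around the annotated start of transcription is shown for members at the extremes of the difference between reprogrammed and adult lung, among those with a single window in the RefSeq table (build GRCm38.p6): the 4 largest differences, the 3 smallest, and the pair Rpl39 and Rpl39l. Each window holds 80 bases before the start and 20 from it, 5′ to 3′ on the gene's strand. Capitals mark the longest run of at least 8 C or T bases lying within or reaching into the 20 bases on either side of the start.
Rps26 (chr10:128626487-128626586, minus strand): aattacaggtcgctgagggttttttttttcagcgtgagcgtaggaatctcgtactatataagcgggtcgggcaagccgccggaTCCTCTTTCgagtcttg
Rps28 (chr17:33824543-33824642, minus strand): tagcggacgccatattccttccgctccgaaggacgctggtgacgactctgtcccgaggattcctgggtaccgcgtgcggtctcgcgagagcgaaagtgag
Rpl12 (chr2:32961632-32961731, plus strand): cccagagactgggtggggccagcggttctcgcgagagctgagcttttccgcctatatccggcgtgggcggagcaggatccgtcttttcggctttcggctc
Rpsa (chr9:120127686-120127785, plus strand): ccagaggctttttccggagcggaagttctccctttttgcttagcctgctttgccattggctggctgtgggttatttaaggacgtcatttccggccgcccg
Rpl7l1 (chr17:46782637-46782736, minus strand): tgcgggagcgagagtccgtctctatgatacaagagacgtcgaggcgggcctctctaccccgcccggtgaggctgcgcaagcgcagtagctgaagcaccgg
Rps6 (chr4:86857348-86857447, minus strand): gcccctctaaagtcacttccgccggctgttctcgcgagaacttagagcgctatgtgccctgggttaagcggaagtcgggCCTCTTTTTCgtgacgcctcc
Rpl27a (chr7:109519115-109519214, plus strand): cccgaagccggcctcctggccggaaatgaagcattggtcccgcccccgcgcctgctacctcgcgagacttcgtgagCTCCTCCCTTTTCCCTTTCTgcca
Rpl39 (chrX:37085203-37085302, minus strand): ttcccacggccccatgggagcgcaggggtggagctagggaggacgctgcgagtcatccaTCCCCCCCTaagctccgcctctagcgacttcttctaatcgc
Rpl39l (chr16:10170148-10170247, plus strand): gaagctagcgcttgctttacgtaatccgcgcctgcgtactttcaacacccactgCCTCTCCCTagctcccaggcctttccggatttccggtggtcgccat

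The RefSeq table held windows for 62 of the 82 members, 74 windows in all. A run of at least 8 C or T bases near the start on the gene's strand stood in 35 of these 74 windows (47.3%), against 21.0% of the 32851 windows of all genes. A counted run can lie wholly before the start, as for Rpl39 and Rpl39l, so this is not the share of messages with a TOP tract. Runs were found on both sides of the comparison: Rps26, with a large difference, and Rps6 and Rpl27a, with small ones, carry such a run. Rps28, Rpl12 and Rpsa, with large differences, and Rpl7l1, with a small one, do not. Searched on both strands over the whole window (250 bases before the start and 50 from it), CCGGAAG was present in 27 member windows (36.5%, against 8.86% of all windows). GGGCGG was present in 44 (59.5%, against 35.7%), AAGATGGC in 8 (10.8%, against 2.75%) and TATAAA in 7 (9.46%, against 13.6%). CCGGAAG and AAGATGGC can share the letters AAG where they adjoin. A match describes the letters only. The annotated start can lie some bases from the one used in these cells.

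On the arrays, a level is a log2 signal with the 75th percentile of its array set to 0. Levels of different probes are not on a common scale and are not compared with each other. A probe was tested if well above background on all 3 arrays of at least 1 group, and a gene was read from its brightest probe. By this rule 81 of the 82 members were tested (115 of 118 probes). Rpl3l, known as a paralog of striated muscle, was above background on only 2 arrays and was not tested. A gene is said to rise or fall where its adjusted p, from limma with Benjamini-Hochberg adjustment over all tested probes, was under 0.05.

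The arrays carried 43379 spots each, and their number, 3 per group, limits the precision. Adult mammary replicate 4 and reprogrammed lung replicate 1 stood apart, with 89.1% and 91.1% of probes above background, against 71.8% to 77.5% on the other 10 arrays. Of the bright member spots, 21 on reprogrammed mammary replicate 2, 5 on reprogrammed lung replicate 4, 3 on adult lung replicate 2 (these arrays share a slide), 1 on adult lung replicate 1 and 1 on reprogrammed mammary replicate 3 were marked as non-uniform by the scanner program and left out. 23 of the 81 tested genes therefore lack a value on some array. No member spot was saturated.

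The arrays labelled reprogrammed lung were low in lung markers. A summed level here is the log2 of the added, scaled signals of a list's markers on an array. The brightest probes weigh most in it, and a sum is compared only between arrays. The summed level of 6 alveolar type II markers was 0.91 to 1.58 on reprogrammed lung arrays and 0.93 to 1.12 on reprogrammed mammary arrays, against 7.73 to 7.91 on adult lung and 1.29 to 1.54 on adult mammary arrays. All 6 were lower in reprogrammed lung than in adult lung, and Nkx2-1 was above background on no array outside adult lung. The 7 mammary luminal markers summed to 4.41 to 8.54 in reprogrammed lung and 6.85 to 7.32 in reprogrammed mammary, against 1.12 to 2.49 in adult lung and 6.83 to 7.26 in adult mammary. All 7 were higher in reprogrammed lung than in adult lung, and 5 of them passed the threshold. The 10 pan-epithelial markers summed to 5.04 to 7.61 in reprogrammed lung and 7.77 to 7.98 in reprogrammed mammary, against 4.46 to 4.87 in adult lung and 7.72 to 8.10 in adult mammary. The 7 endothelial markers summed to 5.13 to 5.52 in reprogrammed lung and 4.65 to 4.80 in reprogrammed mammary, against 7.06 to 7.29 in adult lung and 4.05 to 5.19 in adult mammary, and all 7 were lower in reprogrammed lung than in adult lung. The 4 adipocyte markers summed to 6.35 to 7.0 in reprogrammed lung and 6.05 to 6.42 in reprogrammed mammary, against 2.07 to 2.52 in adult lung and 6.03 to 7.07 in adult mammary. Adult lung alone was low for them. All 4 differences of reprogrammed lung from adult lung were positive, and 2 of them passed the threshold. The 6 basal markers summed to 7.31 to 7.98 in reprogrammed lung and 7.39 to 7.80 in reprogrammed mammary, against 6.79 to 7.16 in adult lung and 7.63 to 8.07 in adult mammary. All 6 were higher in reprogrammed lung than in adult lung, and 3 of them passed the threshold. Both club cell markers and all 4 alveolar type I markers were lower in reprogrammed lung, where they summed to -1.02 to 1.09 and 1.48 to 3.00, against 8.07 to 8.67 and 6.30 to 6.46 in adult lung. Within reprogrammed lung, replicate 1 had the lowest pan-epithelial sum and B cell, T cell and neutrophil marker sums of 6.30, 3.92 and 3.88, against at most 0.95, 1.00 and 0.08 on the other 2 arrays of that group. High B cell and T cell sums were not limited to that array. They were 3.70 and 4.35 on reprogrammed mammary replicate 2 and 2.95 and 3.95 on adult mammary replicate 4. The other arrays of the mammary groups had at most 2.39 and 0.77, and adult lung arrays 2.09 to 2.40 and 2.09 to 2.49. In bulk cells of this kind, a different mix of cell types and a different amount of RNA per cell cannot be told apart.

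Ribosomal protein genes were higher in reprogrammed lung than in adult lung across nearly the whole family. Over the 58 genes with a value on every array, the median level was 5.39, 5.44 and 5.07 on the reprogrammed lung arrays and 5.34, 5.25 and 5.28 on the reprogrammed mammary arrays. It was 4.19, 4.12 and 4.24 on the adult lung arrays and 5.26, 5.26 and 5.27 on the adult mammary arrays. Adult lung alone lay apart, by about 1 log2 unit, and the other 3 groups overlapped. For 56 of these 58 genes the 3 lowest arrays were the 3 adult lung arrays.

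**Figure D1:**
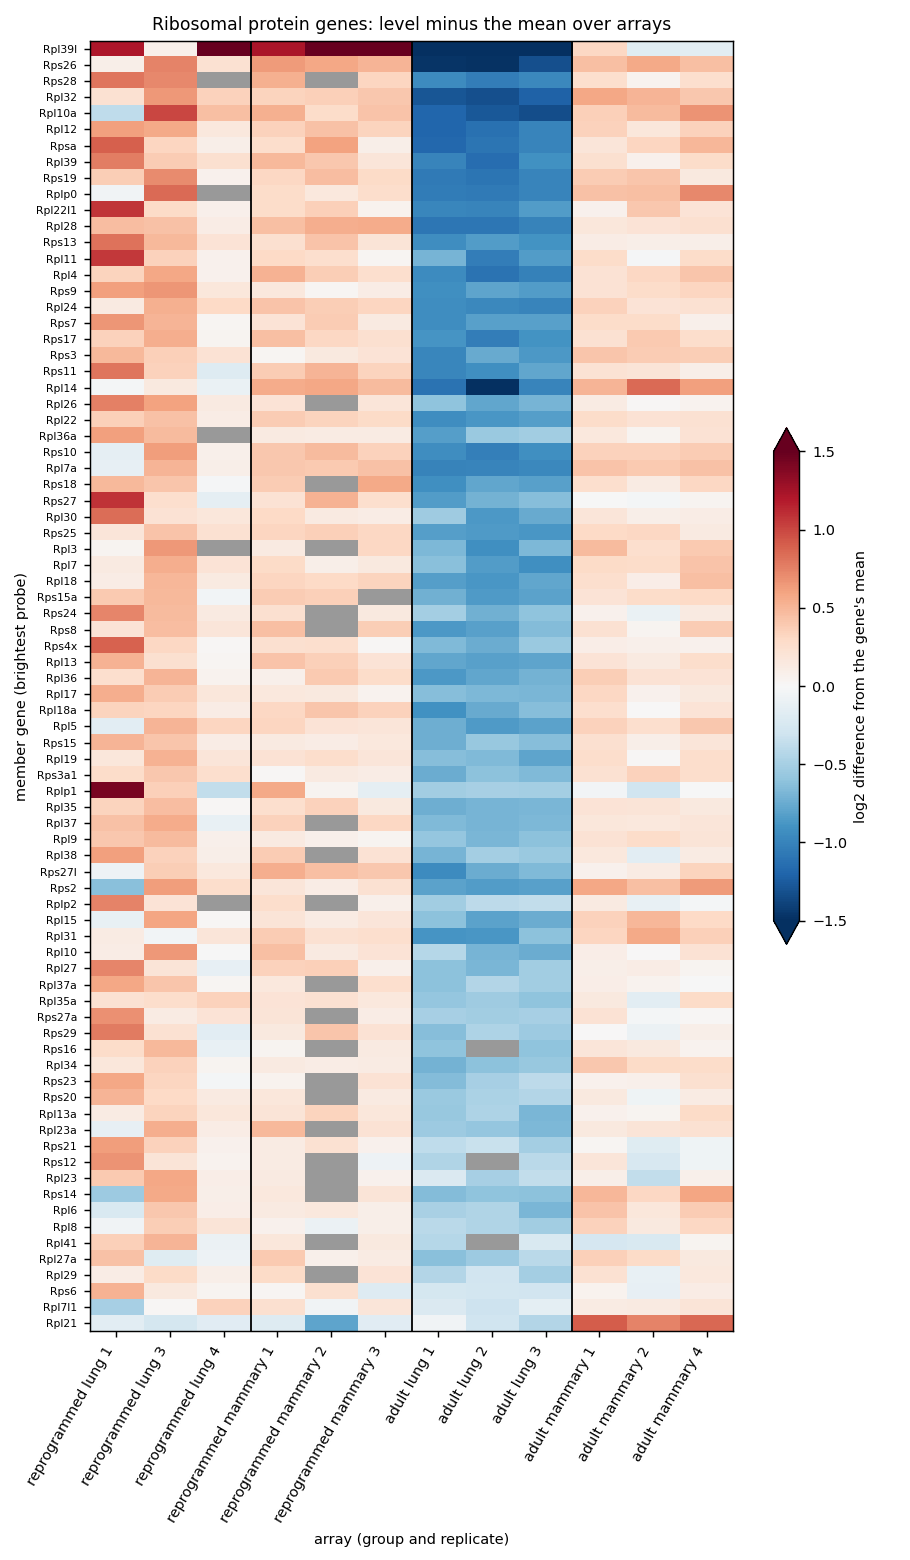
Level of 80 of the 81 tested member genes (rows, brightest probe) on each of the 12 arrays (columns), as the log2 difference from the gene's mean over arrays. Rows are sorted by the difference of reprogrammed lung from adult lung, colours end at 1.5 in either direction and grey marks a spot left out. The 3 adult lung columns are the lowest in all but a few rows.

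In reprogrammed lung against adult lung, 74 of the 81 genes rose and none fell. The 74 include Rpl39l, which was below background on the adult lung arrays. The median difference was 1.06 (2.08-fold), against 0.09 over all tested probes, of which 23.8% were called (13.9% higher and 9.84% lower). All 81 differences were positive, 44 were at least 2-fold, and the levels of the groups did not overlap for 79, against 21.1% of all tested probes higher and 15.7% lower without overlap. Both subunits took part: 45 of 49 large-subunit genes rose (median 1.02), and 29 of 32 small-subunit genes rose (median 1.07). The rise held at 73 genes without adult mammary replicate 4 and reprogrammed lung replicate 1, and at 74 with the marked spots kept. Within the 3 slides that carried both groups, the median difference was 1.20, 1.10 and 0.85 log2. Lower alveolar, club cell and endothelial and higher adipocyte, mammary luminal, basal and pan-epithelial marker sums moved with this comparison, as given above, and their part in it was not tested.

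Among the largest differences of canonical genes were those of Rps26, Rps28, Rpl32, Rpl10a, Rpl12, Rpsa and Rpl39, all between 1.48 and 1.78. Rps26, a small-subunit protein that lies at the exit of the mRNA channel, had levels of 4.80, 5.46 and 4.95 on reprogrammed lung arrays and 5.35, 5.30 and 5.22 on reprogrammed mammary arrays, against 3.24, 3.23 and 3.40 on adult lung and 5.17, 5.28 and 5.16 on adult mammary arrays. Every adult lung array lay well below every other array. The difference of reprogrammed lung from adult lung was 1.78 ± 0.18 (SE, adjusted p = 0.000108, limma), a 3.43-fold rise.

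Rpl32, a protein of the large subunit, had levels of 4.89, 5.31 and 5.00 in reprogrammed lung and 4.99, 5.01 and 5.06 in reprogrammed mammary, against 3.37, 3.34 and 3.44 in adult lung and 5.23, 5.17 and 5.07 in adult mammary. Here too adult lung alone was low. Its difference of 1.68 ± 0.15 (SE) between reprogrammed and adult lung had the smallest adjusted p of the family, 4.86e-05 (limma). Rps28 rose by 1.75 ± 0.17 (SE) with 1 reprogrammed lung spot left out, and Rpl12, which lies at the base of the ribosomal stalk, rose by 1.55 ± 0.16 (SE, adjusted p = 0.000129, limma). Rpl10a, the protein of the mobile L1 stalk, rose by 1.62 ± 0.29 (SE) with a wide spread in reprogrammed lung, from 4.01 on replicate 1 to 5.40 on replicate 3, against 3.06 to 3.20 in adult lung.

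Rpsa, first described as a laminin receptor and needed to form the small subunit, had levels of 5.01, 4.43 and 4.20 in reprogrammed lung and 4.38, 4.72 and 4.20 in reprogrammed mammary, against 2.94, 3.02 and 3.12 in adult lung and 4.30, 4.43 and 4.61 in adult mammary. The 3 groups other than adult lung overlapped. The rise of reprogrammed over adult lung was 1.52 ± 0.22 (SE, adjusted p = 0.000876, limma). Rpl39 rose by 1.48 ± 0.18 (SE).

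7 genes did not pass the threshold in reprogrammed lung against adult lung: Rpl21, Rpl41, Rpl7l1, Rplp1, Rps12, Rps14 and Rps6. Rps6, the small-subunit protein phosphorylated by S6 kinase downstream of mTOR, had levels of 6.63, 6.25 and 6.14 in reprogrammed lung and 6.14, 6.35 and 5.91 in reprogrammed mammary, against 5.84, 5.84 and 5.83 in adult lung and 6.16, 5.99 and 6.23 in adult mammary. The adult lung arrays were again the lowest, but by less than for most members, and the difference was 0.51 ± 0.18 (SE, adjusted p = 0.0611, limma). For Rpl41, which encodes a very short peptide, the difference was 0.59 ± 0.22 (SE, adjusted p = 0.0925, limma) with 1 adult lung spot left out. For Rps12 it was 0.74 ± 0.23 (SE, adjusted p = 0.0525, limma), also with 1 adult lung spot left out, and for Rps14 0.66 ± 0.25 (SE, adjusted p = 0.0894, limma). By brightest probe, Rpl29 and Rpl27a rose by the smallest amounts among the genes that passed, 0.57 and 0.58, with adjusted p of 0.0256 and 0.0483 (limma). The other tested probes of Rpl29 gave larger rises of 0.65, 0.84 and 0.86, so its place depends on the probe.

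**Figure D2:**
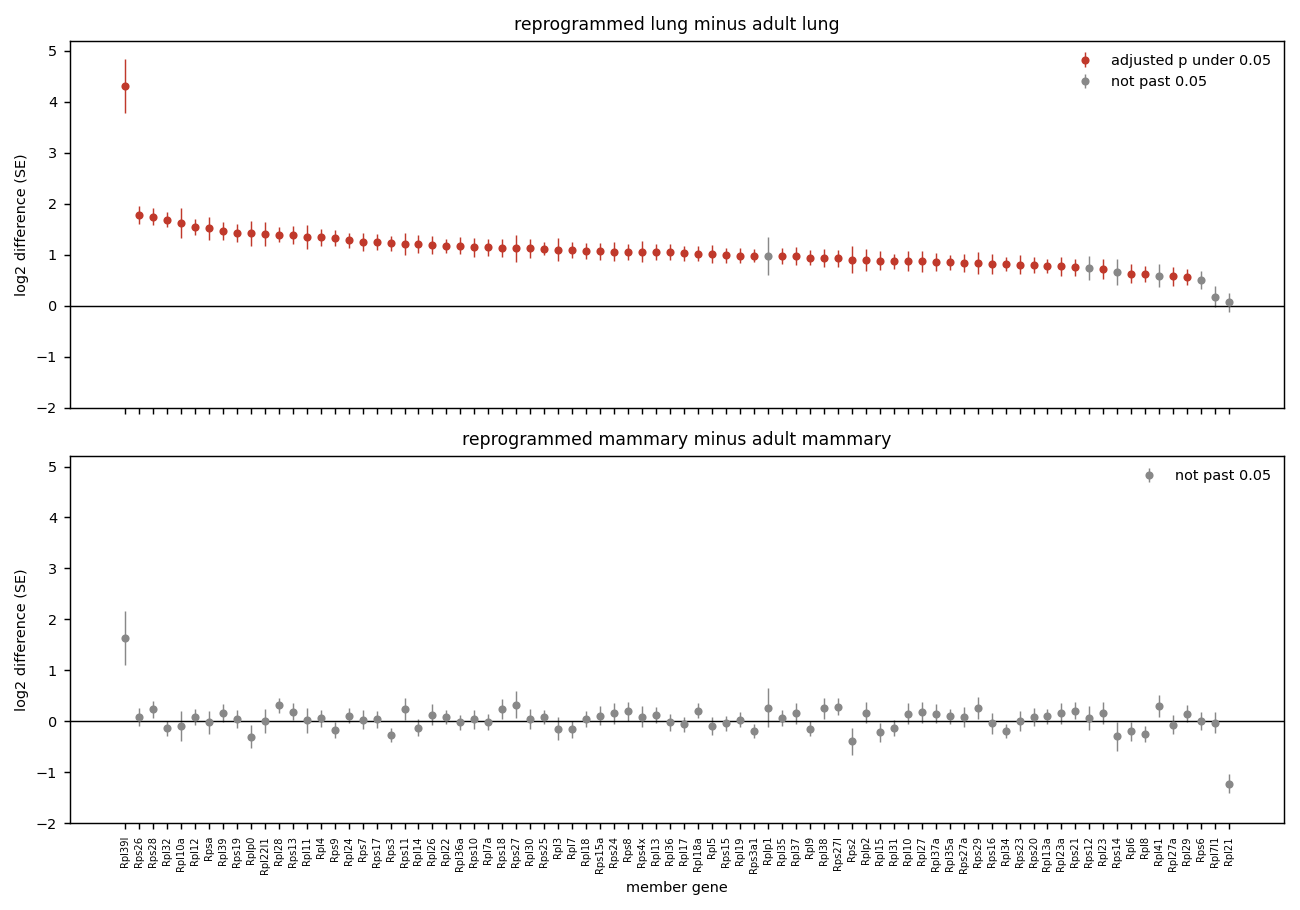
Log2 difference (points) with its model SE (bars) for 80 of the 81 tested member genes, for reprogrammed lung minus adult lung (upper panel) and reprogrammed mammary minus adult mammary (lower panel), in the same gene order. In the upper panel all points lie above 0 and all but 7 pass an adjusted p of 0.05 (red). In the lower panel none passes and the points scatter around 0, with Rpl39l highest and Rpl21 lowest. The Rpl39l point of the upper panel is a fitted value against adult lung arrays below background, not a measured size.

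Reprogrammed mammary did not show such a shift from adult mammary. No member passed the threshold in either direction (limma), 2 had an unadjusted p under 0.05, and the smallest adjusted p was 0.0848. Of all tested probes 0.00315% were called in this comparison, so almost no probe of any gene passed here. The median difference was 0.06, against 0.00 over all tested probes, and 52 genes were higher and 29 lower. The differences closest to 0 were those of Rpl22l1 (0.00), Rps23 (0.01) and Rpl7a (-0.01), with SEs of 0.24, 0.21 and 0.17. The groups did not overlap for 20 genes higher and 13 lower, against 11.7% and 11.9% of all tested probes. Over the 58 genes with a value on every array, these counts were 11 and 11. Among the 23 genes lacking a value on some array they were 9 and 2, and groups separate more easily where a spot is left out.

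Rpl21 was the lowest member in that comparison. Its probe gave levels of -2.54, -2.65 and -2.55 in reprogrammed lung and -2.58, -3.18 and -2.55 in reprogrammed mammary, against -2.44, -2.68 and -2.83 in adult lung and -1.48, -1.64 and -1.52 in adult mammary. Adult mammary alone was high, and the other 3 groups overlapped. The difference of reprogrammed from adult mammary was -1.22 ± 0.19 (SE, adjusted p = 0.0848, limma), that of reprogrammed lung from adult mammary -1.04 ± 0.19 (SE, adjusted p = 0.153, limma) and that of adult lung from adult mammary -1.10 ± 0.19 (SE, adjusted p = 0.00198, limma). The first of these passed the threshold without reprogrammed lung replicate 1 and with array weights. Rpl21 has no second probe here.

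The change from the adult to the reprogrammed state was then compared between the organ names, as the difference of reprogrammed lung from adult lung minus the difference of reprogrammed mammary from adult mammary. It was positive for all 81 members and passed the threshold for 51, with a median of 1.02 against 0.08 over all tested probes, of which 7.61% were called positive and 5.57% negative. Rpl32 had the smallest adjusted p, with a difference of changes of 1.82 ± 0.21 (SE, adjusted p = 0.000759, limma). By size, Rpl32 also led the canonical genes, followed by Rplp0, Rpl10a and Rps26 at 1.73, 1.71 and 1.69. The 51 include Rpl39l, which was below background on the adult lung arrays. By subunit, 34 of 49 large-subunit and 17 of 32 small-subunit genes passed. The count is sensitive to scaling, being 19 when arrays were scaled to their median, 26 after quantile normalization and 9 with slide as a fixed block, with the direction kept in each. By its definition, the difference of changes also equals reprogrammed lung minus reprogrammed mammary, less adult lung minus adult mammary. The member medians of these were 0.06 and -0.98. It uses the same adult lung arrays and is not independent of their low levels.

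Adult lung was also lower than adult mammary for most of the family. In adult lung against adult mammary, 71 of 81 genes fell and none rose, with a median of -0.98 against -0.02 over all tested probes, of which 29.3% were called (16.5% lower). All 81 differences were negative, and the groups did not overlap for 79, against 28.7% of all tested probes lower without overlap. By subunit, 44 of 49 large-subunit and 27 of 32 small-subunit genes fell. The 71 include Rpl39l, which was below background on the adult lung arrays. The count was 32 with slide as a fixed block. On slide 1, the only slide that carried both groups, the median difference was -0.92.

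Among the canonical genes with non-overlapping groups, the largest differences were those of Rps26 (-1.91 ± 0.18, SE), Rpl14 (-1.86 ± 0.17), Rpl32 (-1.77 ± 0.15), Rpl10a (-1.76 ± 0.29), Rplp0 (-1.56 ± 0.22), Rpsa (-1.42 ± 0.22), Rpl7a (-1.41 ± 0.17) and Rpl12 (-1.39 ± 0.16). The 10 genes that did not pass were Rpl23, Rpl41, Rpl7l1, Rplp1, Rplp2, Rps12, Rps21, Rps27, Rps29 and Rps6, of which Rpl41, Rps6 and Rpl23 were closest to 0 at -0.19 ± 0.22, -0.29 ± 0.18 and -0.29 ± 0.19 (SE). This comparison and the comparison of reprogrammed with adult lung share the adult lung arrays.

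Reprogrammed mammary against adult lung, which uses the same adult lung arrays again, gave 71 genes that rose and none that fell, with a median of 0.97 against 0.04 over all tested probes, of which 26.8% were called (15.0% higher). The 71 include Rpl39l, which was below background on the adult lung arrays. The groups did not overlap for 80 genes, against 31.2% of all tested probes higher without overlap. Rps26 (2.00 ± 0.18, SE), Rpl14 (1.74 ± 0.17), Rpl10a (1.68 ± 0.29), Rpl32 (1.64 ± 0.15), Rpl28 (1.58 ± 0.14), Rpl12 (1.47 ± 0.16), Rps28 (1.41 ± 0.17, with a reprogrammed mammary spot left out) and Rpl4 (1.40 ± 0.17) had the largest differences among canonical genes. Rpl21 had the only negative one, -0.12 ± 0.19 (SE, adjusted p = 0.71, limma). The count was 32 with slide as a fixed block.

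Between reprogrammed lung and reprogrammed mammary no member passed (limma), with a median of 0.06 against 0.05 over all tested probes. 3 members had an unadjusted p under 0.05, the differences ran from -0.53 (Rpl14) to 0.42 (Rpl36a), and 0.00629% of all tested probes were called. The groups did not overlap for 7 genes higher and 3 lower, against 7.13% and 6.29% of all tested probes. Rpl15, Rpl27 and Rpl5, the last a partner of 5S ribosomal RNA, were closest to 0, with SEs of 0.19, 0.21 and 0.18. Between reprogrammed lung and adult mammary likewise none passed, with 9 members at an unadjusted p under 0.05, a median of 0.09 against 0.07 and 0.0283% of all tested probes called. Rpl36, Rpl4 and Rpl23a were closest to 0, with SEs of 0.16, 0.17 and 0.19. These tests leave room for differences of the size of 2 SE and do not show that the groups have equal levels.

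Reprogrammed lung was the most variable group for these genes. The median SD of a member over the 3 arrays was 0.28 in reprogrammed lung and 0.08 in reprogrammed mammary, against 0.08 in adult lung and 0.10 in adult mammary. This spread was not particular to the members. Array weights, which are low where an array departs from its group over many probes, were lowest for reprogrammed lung replicates 1 and 4 (0.126 and 0.405). Replicate 3 had a weight of 1.01. Of the 58 genes with all values, 21 were highest on reprogrammed lung replicate 1 and 25 on replicate 3, against 3 on replicate 4. Rplp1 spread most among canonical genes, with 6.49 on replicate 1, 5.43 on replicate 3 and 4.70 on replicate 4.

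The stalk of the large subunit, a flexible arm that recruits elongation factors, is built from Rplp0 and the small acidic proteins Rplp1 and Rplp2. Rplp0 had levels of 5.47 and 6.38 in reprogrammed lung (replicates 1 and 3, with the spot of replicate 4 left out) and 5.80, 5.69 and 5.79 in reprogrammed mammary, against 4.48, 4.47 and 4.54 in adult lung and 5.97, 5.98 and 6.24 in adult mammary. It rose by 1.42 ± 0.25 (SE, adjusted p = 0.00307, limma) in reprogrammed over adult lung, and its second probe gave 1.35 ± 0.18. Rplp2 rose by 0.90 ± 0.21 (SE, adjusted p = 0.0154, limma) in the same comparison, on 2 reprogrammed lung arrays. Rplp1 averaged 5.54 ± 0.90 in reprogrammed lung and 4.56 ± 0.02 in adult lung (SD, n = 3 each), and this difference of 0.98 did not pass (adjusted p = 0.0849, limma).

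Of the 4 tested paralogs, Rpl39l, Rpl22l1 and Rps27l rose in reprogrammed lung over adult lung and Rpl7l1 did not pass. Rpl39, which lines the exit tunnel of the large subunit, had levels of 5.88, 5.49 and 5.35 in reprogrammed lung and 5.60, 5.52 and 5.30 in reprogrammed mammary, against 4.12, 3.96 and 4.21 in adult lung and 5.35, 5.18 and 5.38 in adult mammary. Adult lung was the low group. Its paralog Rpl39l, known for its expression in testis, gave -2.90, -4.05 and -1.38 in reprogrammed lung and -2.89, -2.37 and -2.21 in reprogrammed mammary, against -6.80, -7.13 and -7.34 in adult lung and -3.82, -4.30 and -4.28 in adult mammary.

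The Rpl39l probe was not well above background on any adult lung array, and it was above background on all 9 other arrays. As bounds, Rpl39l was at least 4.34-fold higher in reprogrammed lung than in adult lung and at least 5.30-fold higher in reprogrammed mammary than in adult lung. Adult lung was at least 1.70-fold lower than adult mammary. The fitted differences were called with adjusted p of 0.00032, 0.000183 and 0.00229 (limma). These p-values rest on adult lung values below background and do not test the bounds. With normexp background correction these calls were lost: the 3 differences were 0.42, 0.41 and 0.37, the last with the opposite sign. Between reprogrammed and adult mammary the difference of 1.64 ± 0.53 (SE) did not pass (adjusted p = 0.33, limma), although all 3 reprogrammed mammary arrays lay above all 3 adult mammary arrays. A second Rpl39l probe was above background on 1 array and was not tested.

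Rpl22, an RNA-binding protein of the large subunit, had levels of 5.46, 5.55 and 5.22 in reprogrammed lung and 5.49, 5.44 and 5.39 in reprogrammed mammary, against 4.18, 4.23 and 4.28 in adult lung and 5.38, 5.33 and 5.34 in adult mammary. Its paralog Rpl22l1 had 3.81, 3.02 and 2.82 in reprogrammed lung and 3.02, 3.10 and 2.79 in reprogrammed mammary, against 1.77, 1.75 and 1.91 in adult lung and 2.81, 3.15 and 2.94 in adult mammary. Both were low in adult lung alone. Rpl22 rose by 1.18 ± 0.14 (SE, adjusted p = 0.000237, limma) and Rpl22l1 by 1.41 ± 0.24 (SE, adjusted p = 0.00201, limma) in reprogrammed over adult lung.

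Rpl7 had levels of 5.41, 5.82 and 5.48 in reprogrammed lung and 5.56, 5.36 and 5.42 in reprogrammed mammary, against 4.65, 4.44 and 4.35 in adult lung and 5.56, 5.55 and 5.71 in adult mammary. Its paralog Rpl7l1 gave -0.91, -0.40 and -0.06 in reprogrammed lung and -0.17, -0.46 and -0.23 in reprogrammed mammary, against -0.63, -0.73 and -0.56 in adult lung and -0.29, -0.28 and -0.22 in adult mammary. The Rpl7l1 levels of reprogrammed and adult lung overlapped, while those of Rpl7 did not. Rpl7 rose by 1.09 ± 0.16 (SE, adjusted p = 0.000899, limma) and the difference for Rpl7l1 was 0.18 ± 0.20 (SE, adjusted p = 0.585, limma). Rps27 and its paralog Rps27l, a target of p53, rose by 1.13 ± 0.26 and 0.93 ± 0.16 (SE) in the same comparison. No test was made of a paralog against its partner.

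**Figure D3:**
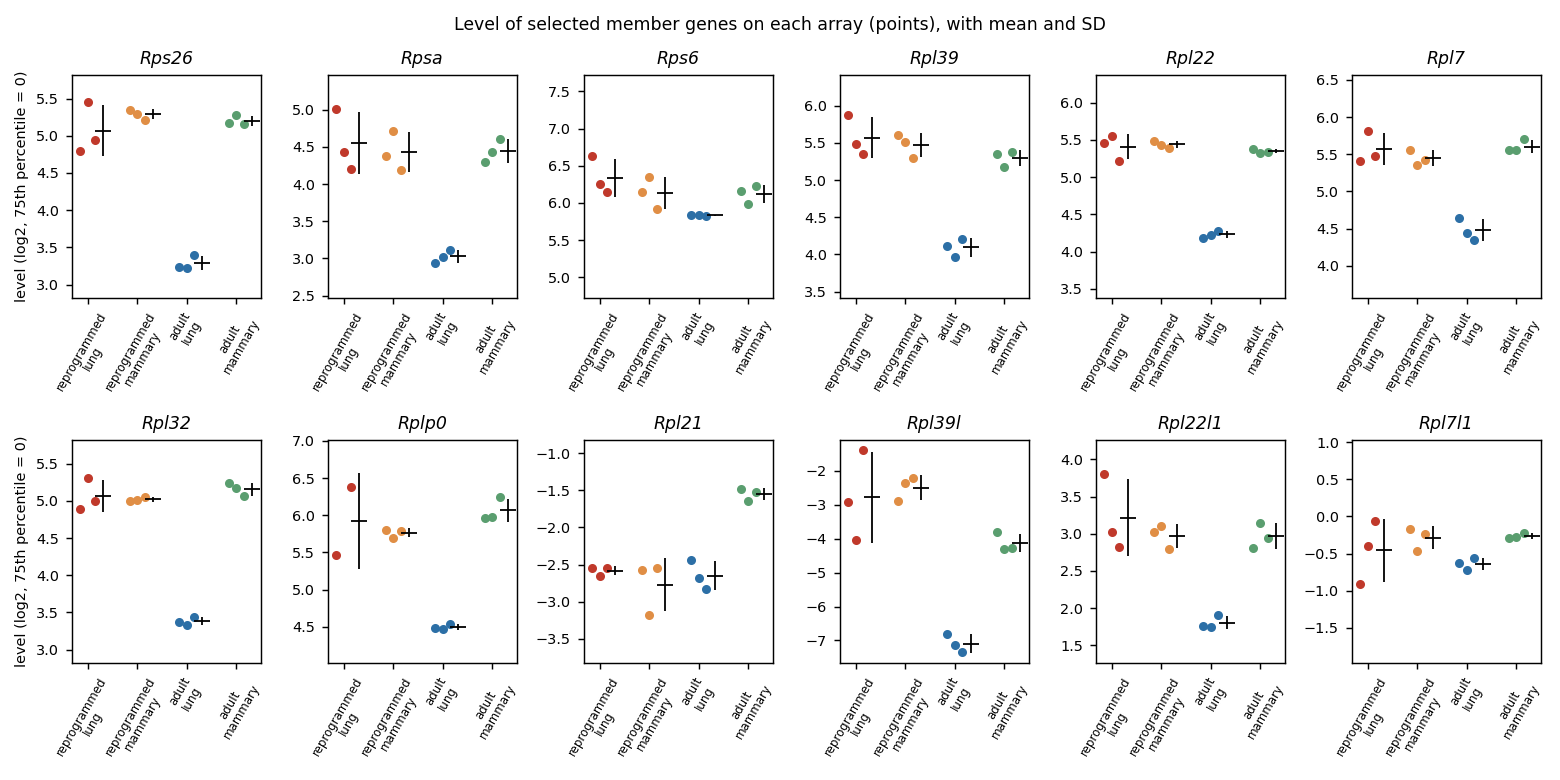
Level (log2, array 75th percentile at 0) of 12 member genes on each array (coloured points), with the mean and SD of each group (black). Each panel has its own vertical range of at least 3 log2 units. In most panels adult lung sits alone at the bottom, whereas adult mammary is the high group for Rpl21 and the groups lie close together for Rps6 and Rpl7l1.

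28 members had several tested probes, which measure the same gene at different places. In reprogrammed lung against adult lung the probes of a gene never differed in sign, and for 25 of the 28 genes every probe passed the threshold. Counted by probe, 105 of 115 rose and none fell. The range over the probes of a gene had a median of 0.24 and reached 0.66 for Rps25, whose probes gave 1.12 ± 0.13 and 0.46 ± 0.15 (SE). In 18 of the 28 genes the probe with the lowest signal gave a larger difference than the brightest one. Rpl23 differed most in adult lung against adult mammary: its brightest probe gave -0.29 ± 0.19 (SE, adjusted p = 0.287, limma) and its other probe -1.38 ± 0.18 (SE, adjusted p = 0.000346, limma). Rpl37 also had probes more than 1 log2 unit apart, at 0.16 and -0.99 in reprogrammed mammary against adult mammary. The second of these had a very low signal, with a mean level of -4.53 against 6.12 for the brightest, so its value is weak evidence. Ribosomal protein genes have many processed pseudogenes with near-identical sequence, so a probe may also bind copies, and values of single genes are uncertain to that extent.

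**Figure D4:**
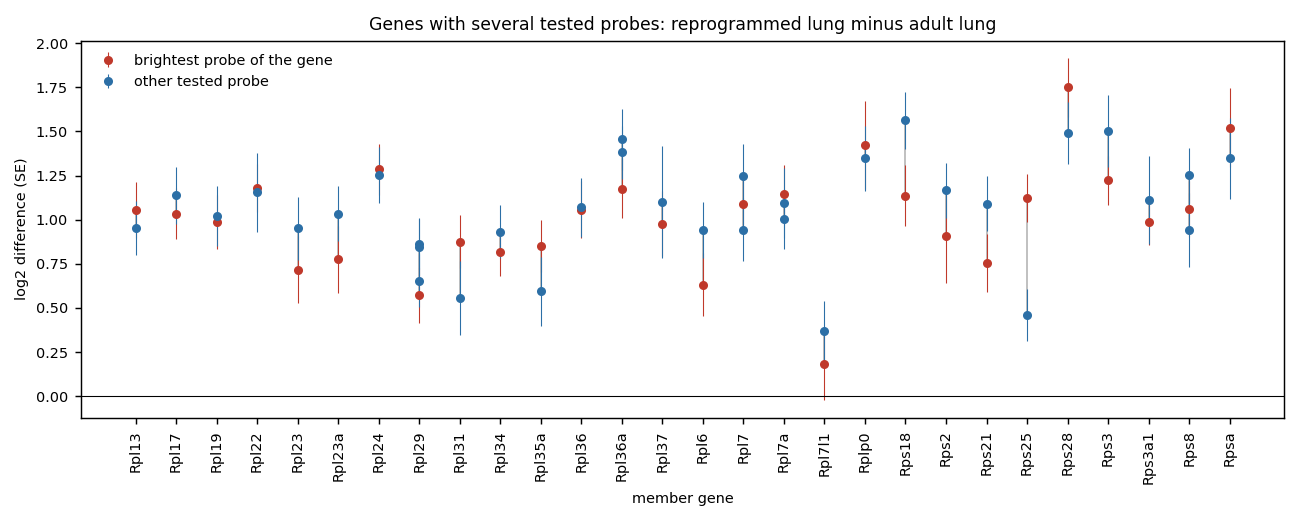
Log2 difference of reprogrammed lung from adult lung (points, with model SE) for each tested probe of the 28 member genes with several probes. The brightest probe is red and the others blue, and every point lies above 0.

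Other genes of translation were taken from lists, to be read against all tested probes: 13.9% of these rose and 9.84% fell in reprogrammed lung over adult lung (median 0.09), and 12.8% rose and 16.5% fell in adult lung against adult mammary (median -0.02). Of 4 ribosomal components whose names fall outside the rule, all 4 rose in reprogrammed lung over adult lung, among them Rack1, a scaffold on the small subunit (1.47 ± 0.18, SE), and Fau, which encodes a ubiquitin-like protein fused to a ribosomal protein (1.12 ± 0.20). Of 20 elongation factors and other TOP genes 13 rose and 1 fell, with a median of 0.84. The largest differences were those of the poly(A)-binding proteins Pabpc1 (1.54 ± 0.26) and Pabpc4 (1.34 ± 0.19) and of Eef1b2 (1.37 ± 0.15), a subunit of the exchange factor for elongation factor 1. Ybx1, an mRNA-binding protein, was the one that fell (-0.79). In adult lung against adult mammary 1 gene of this list rose and 14 fell.

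Of 33 ribosome biogenesis genes, 20 rose and none fell in reprogrammed lung over adult lung, with a median of 0.73, against 13.9% of all tested probes that rose and their median of 0.09. Nop58, a core protein of the particles that methylate ribosomal RNA, rose by 1.93 ± 0.26 (SE), Gnl3 (nucleostemin) by 1.49 ± 0.26 and Rrs1 by 1.35 ± 0.27. In adult lung against adult mammary 25 of the 33 fell and none rose, against 16.5% of all tested probes that fell. Of 14 genes of RNA polymerase I transcription, which makes ribosomal RNA, 7 rose and none fell in reprogrammed over adult lung (median 0.56), led by Taf1d (1.42 ± 0.17), Cd3eap (1.31 ± 0.21) and Polr1a (1.03 ± 0.31). Of 26 initiation factors 10 rose and none fell (median 0.48, against 13.9% and 0.09 for all tested probes), led by Eif3i (1.08 ± 0.27), Eif1a (0.96 ± 0.27) and Eif4a1 (0.79 ± 0.25).

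Mitochondrial ribosomal protein genes, which serve a separate ribosome, gave 14 of 78 that rose and none that fell in reprogrammed over adult lung, with a median of 0.25. That share is near the 13.9% of all tested probes that rose. Mrps6 (1.42 ± 0.28), Mrpl45 (1.10 ± 0.24) and Mrps18b (0.91 ± 0.19) had the largest differences. In the other comparisons with adult lung the share was larger. In adult lung against adult mammary 23 of the 78 fell and none rose, against 16.5% of all tested probes that fell. In reprogrammed mammary against adult lung 28 of the 78 rose and none fell, against 15.0% of all tested probes that rose. Among 26 genes of growth control, 3 rose and 1 fell in reprogrammed over adult lung, with a median of 0.06. That is a smaller share than the 23.8% of all tested probes called. Myc, a transcription factor known to activate ribosome genes, had levels of 4.44, 4.00 and 4.00 in reprogrammed lung and 3.26, 3.78 and 3.43 in reprogrammed mammary, against 0.37, 0.36 and 0.82 in adult lung and 3.97, 3.54 and 3.78 in adult mammary. It rose by 3.63 ± 0.22 (SE, adjusted p = 5.49e-06, limma), Ddit4, an inhibitor of mTOR complex 1, rose by 2.01 ± 0.32, and Mxd4, an antagonist of Myc, fell by 1.25 on the log2 scale with an SE of 0.22. In reprogrammed against adult mammary no gene of these 7 lists passed, and their medians ran from -0.27 (ribosome biogenesis) to 0.20 (ribosomal components outside the naming rule). No list was tested against another or against the members.

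**Figure D5:**
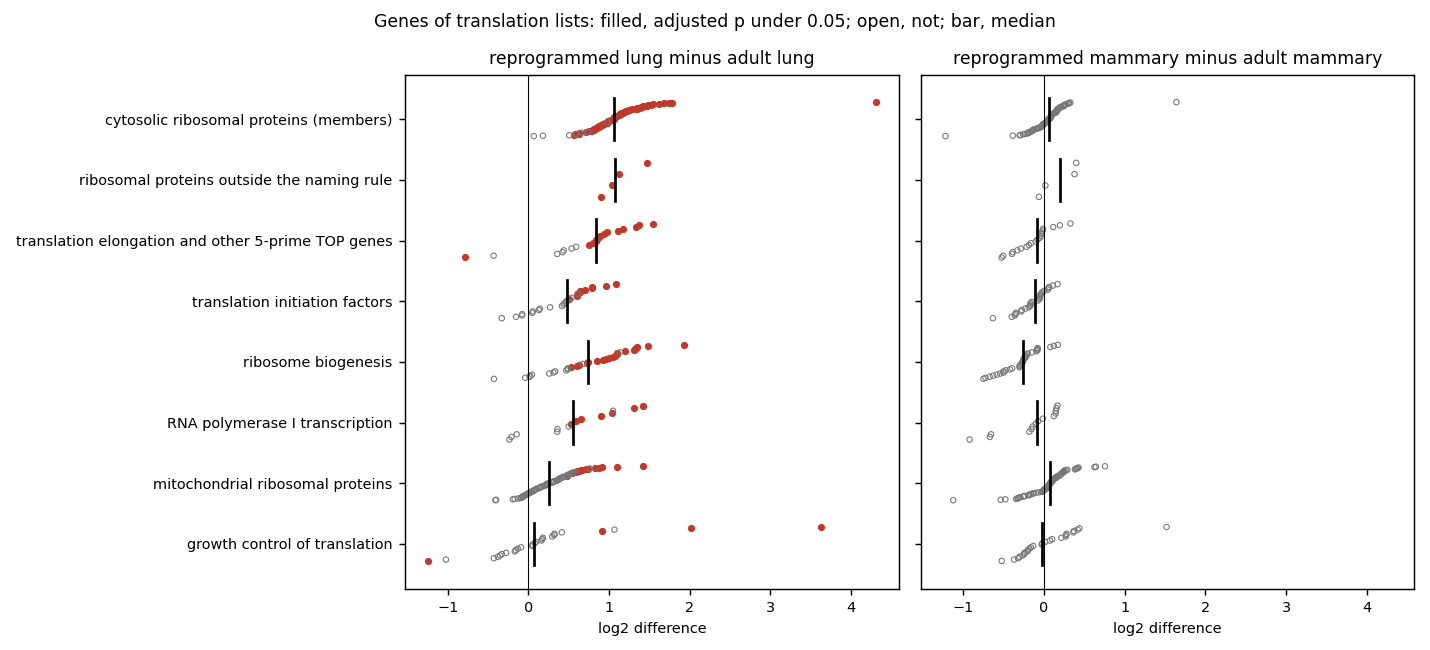
Log2 differences of the tested members and of 7 other lists of translation genes (rows), for reprogrammed lung minus adult lung (left) and reprogrammed mammary minus adult mammary (right). Each point is a gene, filled where its adjusted p was under 0.05, and the bar is the median of the row. On the left the medians run from 0.06 for growth control to 1.08 for the ribosomal components outside the naming rule, and on the right no point is filled.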

How the data were processed

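RNA of 12 samples was labelled with Cy3 after linear amplification and hybridised to single-colour Agilent arrays, per the labels' protocols. The deposited scanner files hold intensities of each spot, extracted with Agilent Feature Extraction 10.5.1.1 per the file headers (10.1 per the submitters' processing notes), background-subtracted within each array and not scaled between arrays. The authors' deposited series table holds log2 values brought to a common median, by a method not given in the sources used here. They served as an alternative.

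Probes were named by matching their accession to RefSeq (24844 of 41174 probes). Outlier spots were left out. Levels were log2 processed signal, each array's 75th percentile subtracted. limma 3.58.1 (R 4.3.3) fitted 4 group means to 12 arrays over 31775 tested probes, with moderated variances and two-sided Benjamini-Hochberg adjusted p at 0.05, and was tested on simulated data. A bound ("at least") sets each array of the dim group to the lowest level marked above background there, or to its own value if higher. Named genes were the 8 largest differences among called canonical members with non-overlapping groups, the 3 smallest, paralogs with their partners, the stalk, Rpsa, genes whose probes disagree, and the 3 largest called genes of each list. Members, lists and rules were chosen with earlier results of these data known. Members not passing in reprogrammed against adult lung or in adult lung against adult mammary, the smallest called differences and 4 genes at the ends of a range were named after their values were seen.

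Alternatives were background correction (normexp, offset 50, on the median signal because the mean signal planned was not in the files used here), scaling, probe filters, probe collapse, slide, replicate number, array weights, variance trend, the samples fitted and arrays left out. Values of 2 genes are not reported here.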

Additional observations from a re-analysis of the deposited data

Results flagged for a closer look

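The reprogrammed minus adult change differed between the lung and mammary names for 51 of the 81 tested ribosomal protein genes, by the test of the difference itself (limma, adjusted p under 0.05), against 13.2% of all tested probes called (7.61% positive). These include Rpl39l, which was below background on all adult lung arrays and whose difference of changes is therefore not given. Among single genes of this test, the difference of changes was 1.82 for Rpl32 and 1.69 for Rps26. It was 1.29 for Rpl21, for which the change was 0.07 between reprogrammed and adult lung and -1.22 between reprogrammed and adult mammary. The test uses the same adult lung arrays as the comparisons with adult lung above and is not independent of them. Groups of 3 arrays were too small to test a single array as an outlier.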

How the results depend on the processing

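In the 4 comparisons that called members, no member was called in the opposite direction under any alternative run. The count of called members in reprogrammed lung against adult lung stayed within 1.5 times of 74 under all alternatives. With slide as a fixed block, 32 members passed in adult lung against adult mammary, 32 in reprogrammed mammary against adult lung and 9 in the organ difference (the reprogrammed minus adult change in lung less that in mammary). That last count was 26 after quantile normalization, 19 with scaling to the array median and 18 with the replicate block. In reprogrammed against adult mammary, 1 member (Rpl21) passed with array weights. Leaving out each array in turn gave 65 to 77 called members in reprogrammed lung against adult lung, 60 to 74 in adult lung against adult mammary, 56 to 75 in reprogrammed mammary against adult lung, 34 to 60 in the organ difference and 0 to 1 in reprogrammed against adult mammary. The difference of Rpl39l between adult lung and adult mammary reversed to 0.37 with normexp correction. Of the other results for named genes, 108 fell below the threshold, 37 passed it newly and 5590 did neither. The causes were not tested. Whether replicate numbers pair the samples was not settled. For this, each probe's group mean was subtracted, and the remaining deviations were correlated between arrays of different groups. These correlations ran from -0.53 to 0.32 for same-numbered arrays and reached 0.64 for differently numbered ones. Scaling to the array median moved the median of all tested probes in reprogrammed lung against adult lung by -0.15 and normexp by -0.25. The member medians were then 0.89 and 1.15, against 1.06 in the main fit. An exact permutation test cannot fall below 0.1 with 3 against 3 arrays and gave no value, and no slide carries all 4 groups, so the organ difference has no within-slide value.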
